A study of Mus musculus with 4 samples.

Results

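The genes described are 38 immediate early genes, of 27998 genes in the deposited matrices, read in stromal cells of mouse bone marrow. They were taken as a fixed list of names: 9 AP-1 and small Maf factors, 12 EGR, KLF and NR4A factors with Myc, 6 MAP kinase phosphatases and signal brakes, 4 mRNA decay and antiproliferative factors, and 7 IER and stress-response genes. The list consists of gene names and applies no expression threshold. Of the 38 genes, 37 reached 5 CPM (UMIs, the unique molecule counts of the assay, per 1000000 UMIs of a sum) in at least 1 sum of a stromal type in a library, and Egr3 did not.

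The study profiled stromal cells of C57BL/6 mice from 2 models of myelodysplastic syndrome, a clonal disorder of blood formation, by droplet sequencing of transcript 3′ ends. NHD13Tg mice carry a Nup98-HoxD13 fusion transgene, and their wild-type counterpart is WT_A1. The second pair set Abcg2-MDS/AML, a genotype that the labels name without further detail, against the wild-type library called Control. Each group was 1 library, and the labels give neither the number of animals in it, nor their age, nor the promoter of the transgene. In all 4 libraries the femora and tibiae were crushed and held in 2 mg/mL collagenase for 60 min at 37 °C before cells were sorted as negative for CD45, TER119 and CD31 and positive for CD140a and CD51. That handling was the same in every group, and no library made without it was analysed here, so levels in undigested marrow were not measured.

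Immediate early genes are transcribed within minutes of a signal from transcription factors that are already present in the cell. Serum response factor with its ternary complex partners, acting below ERK, and CREB, acting below cyclic AMP and calcium, are the best known of these. The first products are mostly transcription factors (FOS, JUN, EGR and NR4A proteins), followed by proteins that end the response: phosphatases that inactivate MAP kinases, ZFP36 proteins that send AU-rich mRNAs to decay, and BTG proteins that restrain proliferation. Enzymatic dissociation of tissue is a known trigger of the same genes, and mechanical load and parathyroid hormone induce several of them in bone.

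The 4 promoter stretches are shown first because they hold the 2 kinds of element that the background names, a cyclic AMP response element (CRE) and a CArG box, the site of serum response factor, in front of members of different roles. Each is the 250 bases before the annotated start, 5′ to 3′ on the strand of the gene, from RefSeq on GRCm38.p6, with matches in capitals. Capitals mark the CRE core TGACG on either strand in Fos (chr12:85473640-85473889, plus strand), Nr4a1 (chr15:101266596-101266845, plus strand) and Btg2 (chr1:134079156-134079405, minus strand), and the CArG box in Zfp36 (chr7:28379229-28379478, minus strand).
Fos: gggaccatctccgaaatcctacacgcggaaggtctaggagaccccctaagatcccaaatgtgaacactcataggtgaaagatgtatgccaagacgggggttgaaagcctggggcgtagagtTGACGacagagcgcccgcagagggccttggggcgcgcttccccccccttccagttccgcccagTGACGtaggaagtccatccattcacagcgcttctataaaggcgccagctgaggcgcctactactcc
Nr4a1: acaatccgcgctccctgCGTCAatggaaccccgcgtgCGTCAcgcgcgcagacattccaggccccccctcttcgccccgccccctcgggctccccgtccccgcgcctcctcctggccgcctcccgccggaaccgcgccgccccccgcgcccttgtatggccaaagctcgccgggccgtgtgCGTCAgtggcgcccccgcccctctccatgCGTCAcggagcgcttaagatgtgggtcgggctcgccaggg
Zfp36: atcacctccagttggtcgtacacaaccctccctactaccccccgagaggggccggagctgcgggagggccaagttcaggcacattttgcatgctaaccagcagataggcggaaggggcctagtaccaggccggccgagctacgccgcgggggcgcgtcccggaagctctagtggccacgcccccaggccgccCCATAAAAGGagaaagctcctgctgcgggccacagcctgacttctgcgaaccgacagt
Btg2: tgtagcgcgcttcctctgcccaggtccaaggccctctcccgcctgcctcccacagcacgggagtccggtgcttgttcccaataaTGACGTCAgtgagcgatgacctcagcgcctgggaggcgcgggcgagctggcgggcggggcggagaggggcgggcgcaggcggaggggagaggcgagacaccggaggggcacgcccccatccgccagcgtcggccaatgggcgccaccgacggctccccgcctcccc

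In Fos the 2 cores begin 129 and 66 bases before the start, and in Nr4a1 the 4 cores begin 233, 213, 69 and 40 bases before it. The CArG box of Zfp36 begins 58 bases before the start. Btg2 holds the full palindrome TGACGTCA, which contains the core on both strands, so its 2 cores overlap. Promoters of 33 members were matched by symbol in 39 windows, and Egr1, Egr3, Fosl1, Ier2 and Myc are named only. The core was found in 19 of the 33 members and in 22 of their 39 windows (56.4%), against 17.8% of all 32851 windows of this length. The full palindrome lay in 4 windows of 4 members (Btg2, Dusp1, Maff and Ppp1r15a, 10.3% of the members' windows against 1.55% of all windows). The CArG box lay in 6 windows of 3 members (Dusp5, Egr2 and Zfp36, 15.4% against 1.47%). The AP-1 site TGANTCA lay in 1 window each of Klf9 and Zfp36l1 (5.13% against 6.75%), and the EGR site GCGTGGGCG in 1 window of Maff (2.56% against 0.536%), each searched on both strands. Base composition also differed: the members' windows had a median of 64% G and C and 19 CG pairs, against 52.4% and 6 over all windows, and the part of composition in these shares was not tested. A match is a string in the window and no measured binding.

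The matrices held 36133716 to 46033790 UMIs per library. Barcodes with at least 2000 UMIs, at least 500 genes and at most 10% mitochondrial UMIs numbered 4973 and 5766 in WT_A1 and NHD13Tg, and 5158 and 5586 in Control and Abcg2-MDS/AML, and 6 to 14 of these barcodes were shared by any 2 libraries. Stromal types were set by marker sums in u (UMIs per 10000 of a cell): Adipoq, Lepr and Esm1 at 10 u for MSC-like cells, Bglap and Bglap2 at 100 u for osteoblast-like, Col9a1, Col9a2 and Col9a3 at 15 u for chondrocyte-like, Dpt, Clec3b and Col14a1 at 8 u for fibroblast-like, and Thbs4 and Myoc at 30 u for tendon-like cells. Each type is thus a range of a score and not a discrete class, and cells passing several rules (162 to 823 per library) were left out, as were the 1503 to 2951 that passed none. MSC-like cells numbered 631, 1803, 417 and 154 in the order WT_A1, NHD13Tg, Control and Abcg2-MDS/AML, which is used for all lists of 4 values below. Of the cells passing several rules, 767, 635, 125 and 125 passed both the fibroblast and the tendon rule. The tendon rule was passed by 1290, 1152, 651 and 1105 called cells, of which 506, 492, 448 and 955 were kept. The fibroblast rule was passed by 2102, 1796, 367 and 668, of which 1296, 1106, 232 and 532 were kept. Tendon-like and fibroblast-like cells are thus what remained of 2 overlapping scores. Osteoblast-like cells reached the minimum of 20 cells in 3 libraries (92, 141 and 54, with 6 in Abcg2-MDS/AML), and chondrocyte-like cells in 2 (971 in Control and 826 in Abcg2-MDS/AML, with 4 and 6 in the NHD13 pair). All 7 MSC markers that the rule did not use (Cxcl12, Kitl, Foxc1, Ebf3, Hp, Lpl and Gas6) were at least 2-fold above the other called cells in 3 libraries, and 5 of 7 in Abcg2-MDS/AML, where Foxc1 and Gas6 were not. In that library the median rule score of MSC-like cells was 16.7 u, against 32.6 to 58.1 u in the others. Of the 189 called cells there that passed the MSC rule, those passing several rules included, 51 lay within 1.25 times the threshold. In the other types most markers outside the rules were also at least 2-fold higher. All 6 chondrocyte markers measured were so in Control and Abcg2-MDS/AML. Of 7 osteoblast markers, Alpl was not in WT_A1 and Phex was not in NHD13Tg. Of 7 fibroblast markers, Clec11a failed in each of the 4 libraries. Of 7 tendon markers, Comp failed in WT_A1 and Abcg2-MDS/AML.

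Summed over the 38 genes, MSC-like cells carried the highest level and osteoblast-like cells the lowest in each library that held both. The members made up 4.40% ± 0.777 of UMIs in MSC-like cells (SD, n = 4 libraries), with 4.64%, 4.19%, 5.32% and 3.47% by library. Chondrocyte-like cells followed with 3.67% in Control and 2.98% in Abcg2-MDS/AML. Tendon-like cells had 3.07% ± 0.354 (SD, n = 4) and fibroblast-like cells 2.74% ± 0.101 (SD, n = 4), and these neighbours overlapped across libraries. Osteoblast-like cells had 1.17%, 1.18% and 1.53%, with no overlap with any other type. In free RNA, read from barcodes with 1 to 100 UMIs, the same genes made up 2.33% to 2.59%. Set gene by gene against free RNA, 27 members were above it in MSC-like cells of all 4 libraries, and 33 were at or below it in osteoblast-like cells of all 3. Both are shares of a total, so they do not give the amount of free RNA in a cell. Haematopoietic markers summed to 13.5, 907 and 270 CPM in osteoblast-like cells of WT_A1, NHD13Tg and Control. In free RNA of these libraries they summed to 2024, 1170 and 4305 CPM. The part of free RNA in the osteoblast-like values was not tested.

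**Figure D1:**
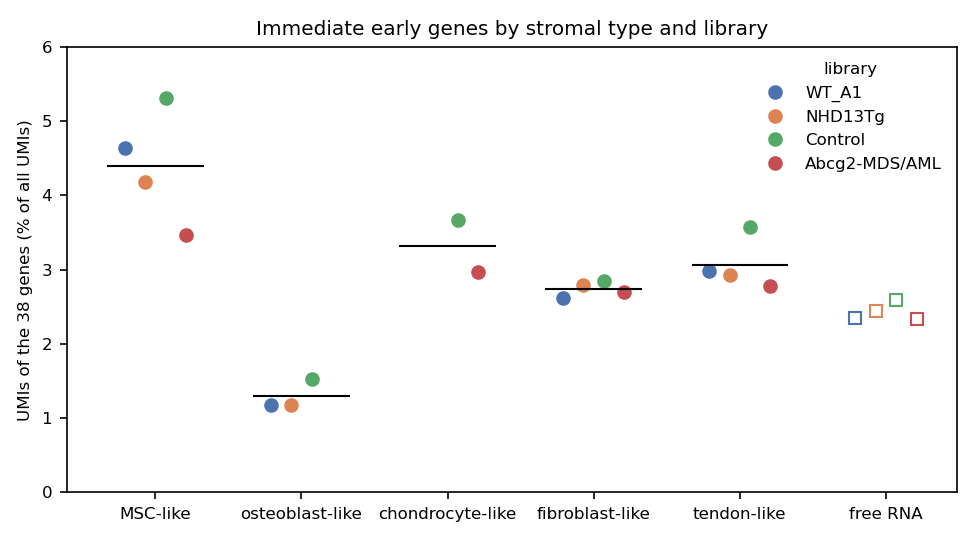
Share of all UMIs (%) taken by the 38 immediate early genes in each stromal type; each filled circle is 1 library, the horizontal line is the mean of the libraries with at least 20 cells, and open squares are free RNA of each library. MSC-like sums lie between 3.47% and 5.32% and osteoblast-like sums between 1.17% and 1.53%, below the free RNA at 2.33% to 2.59%.

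To ask which members differed between types, counts were summed per type and library and each type was set against the mean of the other 4 by edgeR's quasi-likelihood test with the library as a block, with Benjamini-Hochberg adjustment over 11726 genes. In MSC-like cells 24 of 37 members tested were higher and 3 lower at an adjusted p under 0.05, where 26.0% of all genes were called higher and 21.4% lower. The median log2 fold change was 0.84 over the members and 0.01 over all genes tested. Osteoblast-like cells had 28 members lower and 0 higher, where 20.6% of all genes were called lower and 17.5% higher, and a median of -1.24 against -0.08. Chondrocyte-like cells had 20 higher and 3 lower (backgrounds 20.4% and 15.8%; median 0.67 against 0.02). Fibroblast-like cells had 5 higher and 10 lower (16.5% and 12.9%; median -0.13 against -0.01). Tendon-like cells had 12 higher and 2 lower (14.7% and 7.4%; median 0.22 against 0.02). For every type but osteoblast-like, the mean of the other 4 includes the osteoblast-like values, which were low for most members. A type can thus be called higher without leading. Fos and Ppp1r15a were called higher in tendon-like cells, which were highest for them in 0 of 4 libraries. The same held for Ppp1r15a in fibroblast-like cells. Egr4, which had 0 UMIs in every osteoblast-like sum, has no interpretable fold, and leaving it out gave medians of 0.83, -1.22, 0.64, -0.13 and 0.23. These folds rest on TMM scaling, while the levels below are unscaled CPM. TMM factors were 0.90 and 0.69 in chondrocyte-like sums (Control and Abcg2-MDS/AML) and 1.11 to 1.22 in MSC-like sums, and a lower factor raises the scaled level. Ier3 was thus called higher in chondrocyte-like cells (0.47) at 1237 and 1307 CPM, against 1409 and 1607 CPM in MSC-like cells of those libraries.

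The osteoblast-like and MSC-like counts were the steadiest. Under all 11 alternatives, 19 of the 24 higher calls in MSC-like cells and 24 of the 28 lower calls in osteoblast-like cells were kept. In chondrocyte-like cells 13 of 20 higher calls and 0 of 3 lower calls were kept. Of the tendon-like calls, Nr4a2 and Dusp1 were kept, and of the fibroblast-like calls 5 lower ones (Dusp2, Gadd45b, Btg1, Ier2 and Gadd45g). Without the library as a block the 5 higher fibroblast-like calls became 0 and the 12 higher tendon-like calls became 3. Without WT_A1 those counts were 1 and 4, without NHD13Tg 1 and 6, and without Control the tendon-like count was 5. The 4 libraries comprise 2 wild-type and 2 model libraries. The spread behind these p-values was estimated per gene over all 17 sums, so it is not that of 1 type over 4 libraries. Chondrocyte-like sums came from 2 libraries, both of the Abcg2 pair, and osteoblast-like sums from 3. Leaving out WT_A1 or NHD13Tg thus removed no chondrocyte-like sum, and leaving out Control or Abcg2-MDS/AML left that type in 1 library.

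**Figure D2:**
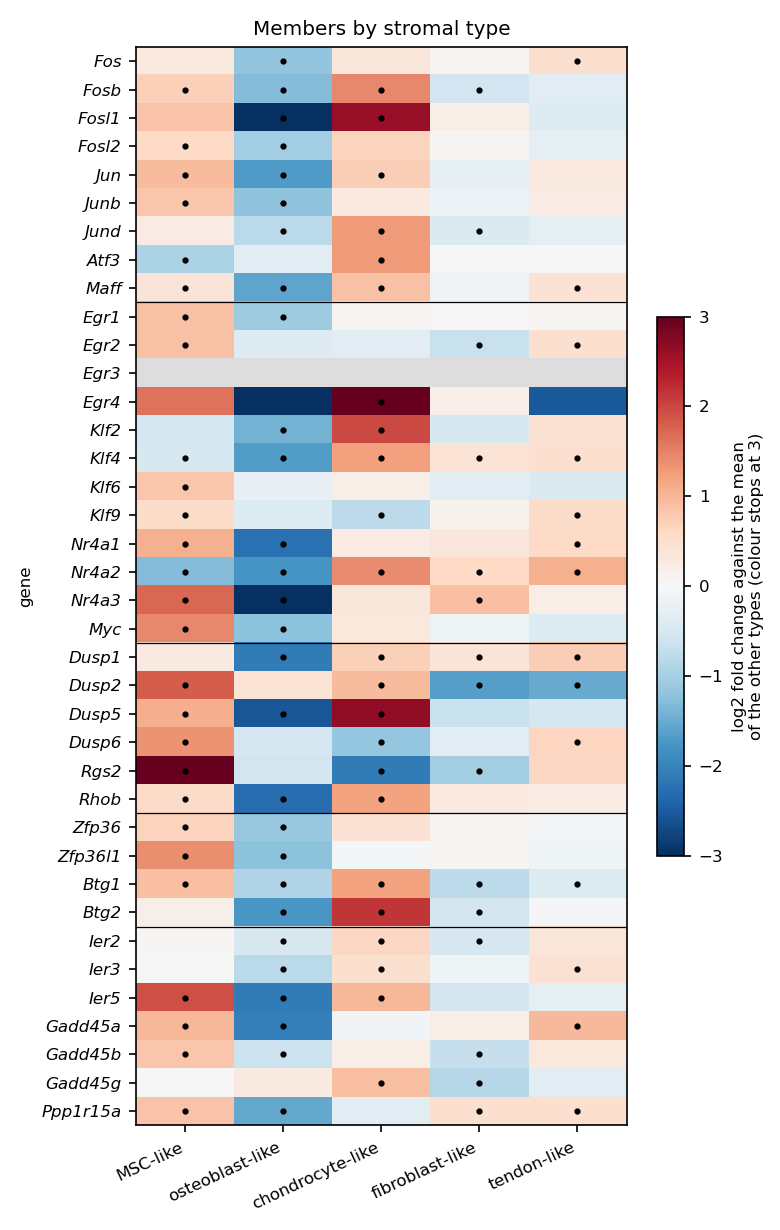
Log2 fold change of each member (rows, grouped by role) in each stromal type (columns) against the mean of the other types, from edgeR; dots mark an adjusted p under 0.05 and grey marks Egr3, which was not tested. The osteoblast-like column holds 28 dots, all on the lower side, and the MSC-like column 24 dots on the higher side and 3 on the lower.

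Among the AP-1 factors, Fos was the most abundant member and the 11th most abundant of all genes by mean CPM (5771 CPM over 17 sums). Fos, the partner of JUN proteins in AP-1, had 7726, 7641, 8627 and 4940 CPM in MSC-like cells, 6472, 6726, 8425 and 5828 CPM in tendon-like cells, and 5183, 5165, 7171 and 5899 CPM in fibroblast-like cells. These 3 types overlapped across libraries. In chondrocyte-like cells Fos had 6520 and 4350 CPM, and in osteoblast-like cells 2305, 1722 and 3401 CPM, the lowest type in each of those 3 libraries. The log2 fold change was -1.19 (SE 0.17, edgeR adjusted p = 5.96e-05) in osteoblast-like cells. It was 0.49 (SE 0.13, adjusted p = 0.0134, edgeR) in tendon-like cells, a call lost without the block and without WT_A1, NHD13Tg or Control. In MSC-like cells it was 0.28 (SE 0.13, edgeR adjusted p = 0.0918) and passed when Abcg2-MDS/AML was left out.

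Jun separated the types more sharply than Fos. Jun, the DNA-binding partner that takes FOS into AP-1, had 3618, 3202, 4126 and 2974 CPM in MSC-like cells and 538, 527 and 688 CPM in osteoblast-like cells. The other types lay between, at 2804 and 1738 CPM (chondrocyte-like), 1996 to 2058 CPM (tendon-like) and 1415 to 1871 CPM (fibroblast-like). No osteoblast-like value overlapped another type, and every MSC-like value was above all others. The log2 fold change was 0.95 in MSC-like cells (SE 0.10, edgeR adjusted p = 2.2e-06, highest in 4 of 4 libraries) and -1.71 in osteoblast-like cells (SE 0.13, adjusted p = 2.63e-07 by edgeR, lowest in 3 of 3).

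Junb, a JUN relative with weaker activating power, had 4332, 3678, 5675 and 3224 CPM in MSC-like cells and 1998 to 3042 CPM in fibroblast- and tendon-like cells. It was highest in MSC-like cells in 4 of 4 libraries, with a log2 fold change of 0.83 (SE 0.13, edgeR adjusted p = 1.04e-04). Fosb, a FOS relative, had 3880, 3289, 3795 and 1577 CPM in MSC-like cells, 3141 and 2466 CPM in chondrocyte-like cells, and 735 to 836 CPM in osteoblast-like cells. It was higher in both MSC-like cells (0.72) and chondrocyte-like cells (1.45). Jund, the JUN protein that is least dependent on stimulation, had 2444 and 1807 CPM in chondrocyte-like cells and 2058, 2204, 2520 and 1271 CPM in MSC-like cells. Its log2 fold change was 1.27 in chondrocyte-like cells (SE 0.16, edgeR adjusted p = 3.15e-05).

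Atf3, a stress-induced repressor of the ATF family, went the other way in MSC-like cells. It had 379, 333, 421 and 566 CPM there, against 977 and 1124 CPM in chondrocyte-like cells and 437 to 831 CPM in fibroblast- and tendon-like cells. Its log2 fold change was -0.94 in MSC-like cells (SE 0.17, edgeR adjusted p = 4.59e-04) and 1.28 in chondrocyte-like cells. Osteoblast-like cells had 335, 394 and 547 CPM, which overlapped the MSC-like values, and MSC-like cells were the lowest type in 2 of 4 libraries. In free RNA Atf3 stood at 437, 464, 689 and 672 CPM, above the MSC-like value of every library. Of the 9 factors in this group, 5 were higher and 1 lower in MSC-like cells, 8 were lower in osteoblast-like cells, and 6 were higher in chondrocyte-like cells. The remaining members Fosl1, Fosl2 and Maff had 0 to 302 CPM in the 17 sums.

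The EGR, KLF and NR4A factors split into genes that led in MSC-like cells and genes that led elsewhere. Egr1, a zinc-finger factor and the member second to Fos in abundance, had 6149, 4045, 5966 and 4006 CPM in MSC-like cells. Its other values were 2340 to 3495 CPM in fibroblast-like, 2474 to 2840 CPM in tendon-like, 2587 and 2022 CPM in chondrocyte-like and 1028 to 1423 CPM in osteoblast-like cells. Every MSC-like value was above every value of another type. The log2 fold change was 0.88 (SE 0.14, edgeR adjusted p = 1.12e-04) in MSC-like cells and -1.06 in osteoblast-like cells. Of the 11 factors tested in this group, 7 were higher and 2 lower in MSC-like cells, and 7 were lower in osteoblast-like cells.

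Nr4a2 was lower in MSC-like cells, where its relatives Nr4a1 and Nr4a3 were higher; all 3 are orphan nuclear receptors that bind DNA without a known ligand. Nr4a2 had 68.7, 75, 121 and 81.1 CPM in MSC-like cells, 341, 257, 378 and 129 CPM in tendon-like cells, 239, 266, 225 and 141 CPM in fibroblast-like cells, and 396 and 151 CPM in chondrocyte-like cells. In each library the MSC-like value was below the fibroblast- and tendon-like ones. Its log2 fold change was -1.29 in MSC-like cells (SE 0.19, edgeR adjusted p = 5.93e-05), 1.07 in tendon-like cells (SE 0.16, adjusted p = 2.55e-04 by edgeR) and 0.60 in fibroblast-like cells. The fibroblast-like call (adjusted p = 0.0138, edgeR) was lost without the block, without WT_A1 and without NHD13Tg. In osteoblast-like cells all 3 were lower, Nr4a2 at 37.4, 50 and 76 CPM (log2 fold change -1.78, edgeR adjusted p = 3.13e-05). Nr4a1 had 919, 1032, 665 and 527 CPM in MSC-like cells against 82.0 to 112 CPM in osteoblast-like cells, and Nr4a3 161, 216, 109 and 31.3 CPM against 5.58 to 15.2 CPM. Both were higher in MSC-like cells, by 1.06 and 1.73 on the log2 scale, and Nr4a1 was also higher in tendon-like cells (0.61, edgeR adjusted p = 0.0157). Nr4a3 was also called higher in fibroblast-like cells (0.91, edgeR adjusted p = 0.0203), a call lost without the block and without WT_A1, NHD13Tg or Abcg2-MDS/AML.

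Klf4, a factor of quiescence and barrier genes, had 1045, 1178, 1161 and 1102 CPM in MSC-like cells, 2293 and 1695 CPM in chondrocyte-like cells, 1135 to 2045 CPM in fibroblast-like cells and 1239 to 2174 CPM in tendon-like cells. The MSC-like log2 fold change was -0.49 (SE 0.14, edgeR adjusted p = 0.0108), a call lost without WT_A1. In free RNA Klf4 stood at 1032 to 1324 CPM, in the range of the MSC-like values. Klf9, a glucocorticoid-responsive factor, was lower in chondrocyte-like cells at 218 and 263 CPM (log2 fold change -0.79, SE 0.21, edgeR adjusted p = 0.0092), a call lost without the block and without Abcg2-MDS/AML. Egr4 UMIs were nearly all in chondrocyte-like cells, 188 in Control and 57 in Abcg2-MDS/AML, and 49.1% of the latter came from 1 cell.

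Among the phosphatases and signal brakes, Rgs2 was set apart in MSC-like cells. Rgs2, which speeds the shut-off of Gq signalling, had 142, 339, 127 and 201 CPM in MSC-like cells. Its highest value in any other sum was 51.5 CPM (tendon-like, Control), and chondrocyte-like cells had 12.8 and 3.15 CPM, so MSC-like cells did not overlap another type. The log2 fold change was 3.05 in MSC-like cells (SE 0.26, edgeR adjusted p = 3.02e-07, highest in 4 of 4 libraries) and -2.09 in chondrocyte-like cells (SE 0.45, adjusted p = 0.00224 by edgeR), the latter lost without Abcg2-MDS/AML. In free RNA Rgs2 stood at 33.3, 81.6, 18.2 and 34.3 CPM.

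Dusp1 and Rhob were low in osteoblast-like cells. Dusp1, the phosphatase of p38 and JNK, had 86.8, 166 and 106 CPM there, against 502 to 759 CPM in MSC-like, 426 to 715 CPM in fibroblast-like, 499 and 428 CPM in chondrocyte-like and 511, 818, 673 and 525 CPM in tendon-like cells. The osteoblast-like log2 fold change of Dusp1 was -2.09 (SE 0.15, edgeR adjusted p = 9.98e-08, lowest in 3 of 3 libraries). It was 0.73 in tendon-like cells (SE 0.11, adjusted p = 1.74e-04 by edgeR) and 0.39 in fibroblast-like cells (adjusted p = 0.0139, edgeR). The fibroblast-like call was lost with marker thresholds multiplied by 2, without the block, without WT_A1 and without NHD13Tg. Rhob had 26.3, 25.3 and 27.0 CPM in osteoblast-like cells against 90.3 to 194 CPM elsewhere, a log2 fold change of -2.29 (SE 0.20, edgeR adjusted p = 7.08e-07).

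Dusp5, a nuclear ERK phosphatase, led in chondrocyte-like cells at 106 and 216 CPM, with 87.2, 84.7, 128 and 47.9 CPM in MSC-like cells and 6.84 to 40.8 CPM in the other types. The chondrocyte-like log2 fold change was 2.67 (SE 0.30, edgeR adjusted p = 1.08e-05), and the MSC-like one 1.10. In Control the MSC-like value was above the chondrocyte-like one, and in Abcg2-MDS/AML it was below. Dusp6, a cytoplasmic ERK phosphatase, was lower in chondrocyte-like cells (9.87 and 3.58 CPM, log2 fold change -1.15, edgeR adjusted p = 0.0122, lost without Abcg2-MDS/AML) and higher in MSC-like cells (51.0, 38.5, 39.7 and 29.5 CPM, log2 fold change 1.34). Dusp2, an early ERK phosphatase, rested on few molecules: 53, 111, 29 and 3 UMIs in MSC-like cells, or 17.8, 12.7, 17.7 and 5.53 CPM. Its log2 fold change was 1.82 in MSC-like (SE 0.19, edgeR adjusted p = 3.08e-06), -1.64 in fibroblast-like (adjusted p = 1.72e-04, edgeR) and -1.52 in tendon-like cells (adjusted p = 8.31e-04, edgeR), the last lost with marker thresholds multiplied by 2.

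Of the mRNA decay and antiproliferative factors, all 4 were lower in osteoblast-like cells and 3 were higher in MSC-like cells. Zfp36, which binds AU-rich elements and starts deadenylation, had 1860, 1140, 2320 and 925 CPM in MSC-like cells, against 700 to 1065 CPM in fibroblast- and tendon-like cells and 326 to 578 CPM in osteoblast-like cells. Its higher call in MSC-like cells (log2 fold change 0.67, edgeR adjusted p = 0.0037) was lost without WT_A1. Its relative Zfp36l1 had 2610, 1982, 2967 and 1966 CPM in MSC-like cells and at most 1438 CPM in any other sum, a log2 fold change of 1.39 (SE 0.17, edgeR adjusted p = 1.04e-05). Btg2, a p53-responsive adaptor of the CCR4-NOT deadenylase, was the exception with its peak in chondrocyte-like cells. It had 2098 and 2304 CPM there, 923, 938, 1325 and 881 CPM in MSC-like cells, 502 to 1144 CPM in fibroblast- and tendon-like cells, and 194 to 291 CPM in osteoblast-like cells. The chondrocyte-like log2 fold change was 2.15 (SE 0.21, edgeR adjusted p = 3.84e-06). Btg1 had 683, 604, 985 and 733 CPM in MSC-like and 760 and 572 CPM in chondrocyte-like cells, and 249 to 357 CPM in fibroblast- and tendon-like cells. Btg1 was higher in the first pair of types (0.89 and 1.21) and lower in fibroblast-like cells (-0.79, edgeR adjusted p = 5.16e-04). The lower call in tendon-like cells (-0.40, edgeR adjusted p = 0.0411) was lost in 6 of the 11 alternatives, among them each fit without WT_A1, NHD13Tg or Control.

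In the IER and stress group, 4 of 7 genes were higher in MSC-like cells and 6 were lower in osteoblast-like cells. Ier5, a regulator of heat shock factor activity, had 1335, 1008, 2015 and 1047 CPM in MSC-like cells and at most 627 CPM in any other sum. Its log2 fold change was 1.93 (SE 0.22, edgeR adjusted p = 4.76e-06). Ppp1r15a, which reverses the translation block of the integrated stress response, had 560, 504, 670 and 577 CPM in MSC-like cells and 97.2, 89.5 and 135 CPM in osteoblast-like cells. Its osteoblast-like log2 fold change was -1.53 (SE 0.14, edgeR adjusted p = 1.63e-06). In fibroblast-like cells (344, 341, 498 and 553 CPM) it was 0.47 and in tendon-like cells (358, 382, 379 and 496 CPM) 0.51, with adjusted p of 0.00405 and 0.00345 by edgeR, and both calls were lost without the block, the tendon-like one also without NHD13Tg.

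Gadd45b, a p38 pathway activator induced by stress, had 1441, 1134, 1722 and 1782 CPM in MSC-like cells and 462 to 669 CPM in fibroblast-like cells, with log2 fold changes of 0.84 and -0.70 (edgeR adjusted p = 2.44e-05 and 5.38e-04). Its relative Gadd45g was lowest in fibroblast-like cells in 4 of 4 libraries, at 387, 455, 306 and 653 CPM (log2 fold change -0.86, SE 0.16, edgeR adjusted p = 9.15e-04). Ier3, a regulator of ERK and cell survival, had 1164, 1813, 1409 and 1607 CPM in MSC-like and 1655, 1640, 1597 and 1523 CPM in tendon-like cells, which overlapped, and 559 to 801 CPM in osteoblast-like cells. Its tendon-like log2 fold change was 0.46 (SE 0.11, edgeR adjusted p = 0.00696), lost without the block, with cells of several types kept, and without WT_A1 or Control. Ier2 and Gadd45g did not pass in MSC-like cells (log2 fold changes 0.03 and -0.02).

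**Figure D3:**
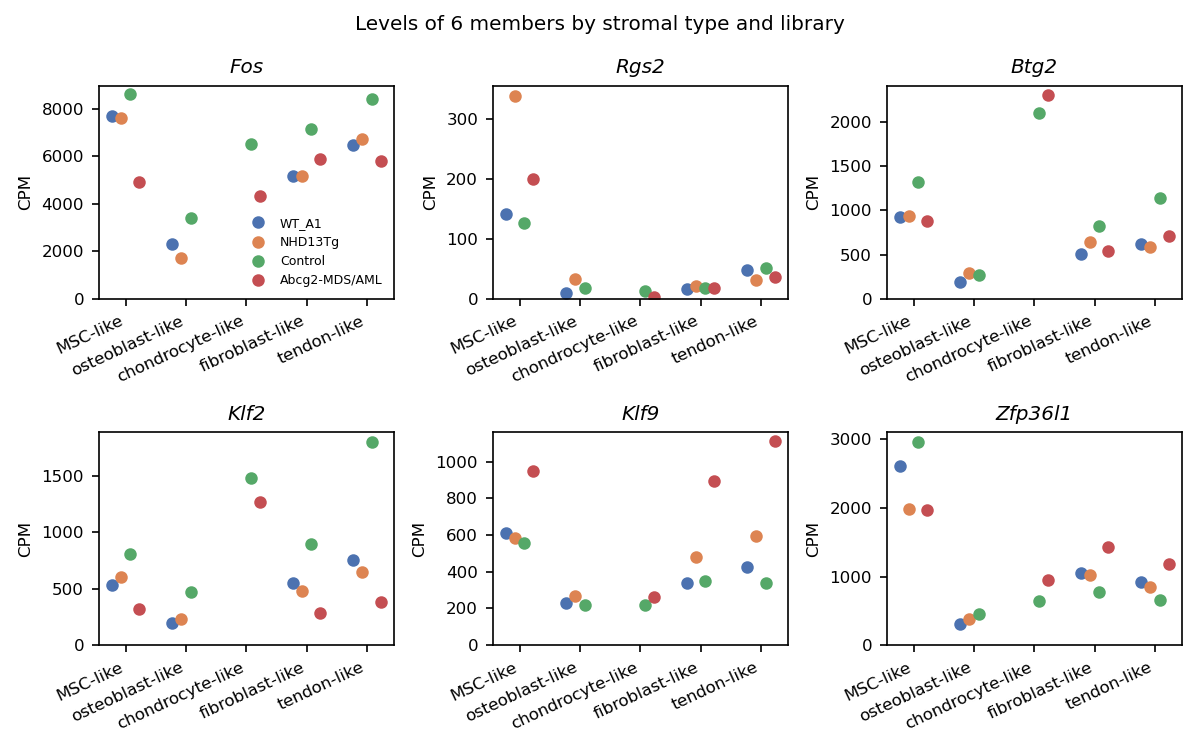
CPM of 6 members (1 panel each, linear axes from 0) by stromal type, with 1 point for each library that had at least 20 cells. Rgs2 is at 127 to 339 CPM in MSC-like cells and at most 51.5 CPM elsewhere, Btg2 is highest in chondrocyte-like cells, and in tendon-like cells the Abcg2-MDS/AML library is the lowest point of Klf2 (384 CPM) and the highest of Klf9 (1113 CPM).

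Per cell, a larger share of osteoblast-like cells than of the other types held few of these transcripts. The median MSC-like cell had 4.64%, 4.20%, 5.14% and 3.43% of its UMIs in these genes. Among osteoblast-like cells 39.1% (36 of 92; exact 95% interval 29.1 to 49.9) had less than 0.5% in WT_A1, 28.4% (21.1 to 36.6) in NHD13Tg and 24.1% (13.5 to 37.6) in Control. In the other types 0.848% to 3.90% of cells fell below 0.5%. With each cell thinned to 2000 UMIs, the lower quartile of osteoblast-like cells was 3, 5 and 9.5 member UMIs and the upper quartile 43.5, 35 and 41.8. The osteoblast-like cells were also the deepest, with median UMIs of 11498 to 12594 against 3323 to 4443 in MSC-like cells, and within a type and library the Spearman correlation of a cell's member share with its UMIs was -0.26 to 0.20. With the mitochondrial share it was negative in all 17 sums (-0.29 to -0.03). Within osteoblast-like cells it was 0.39, 0.28 and 0.35 with Neat1 and 0.37, 0.07 and 0.21 with Malat1, both nuclear RNAs, and -0.28, -0.20 and -0.11 with Bglap, a gene of the type rule. Other osteoblast genes differed: Bglap2, Col1a1, Phex, Car3 and Sp7 were also negative in each library, and Ibsp, Dmp1 and Spp1 had mixed signs. In Control, however, Col1a1, Phex, Car3 and Sp7 were close to 0 (-0.056 to -0.007). Hspa1a, a heat shock gene, also had mixed signs (0.298, 0.174 and -0.215). Alpl was positive in each (0.19, 0.19 and 0.15). The part of these in the spread was not tested. Intervals cover counting error only, and cells of a library are not replicates.

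Within a type and library, cells with more Fos also had more Egr1: the Spearman correlation of their shares over cells was 0.52 to 0.81 in the 17 sums, with a median of 0.64. Junb with Egr1 had a median of 0.61, Fos with Jun 0.60, and Fos with Zfp36l1 0.26. These are descriptions over 54 to 1803 cells that share a library.

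**Figure D4:**
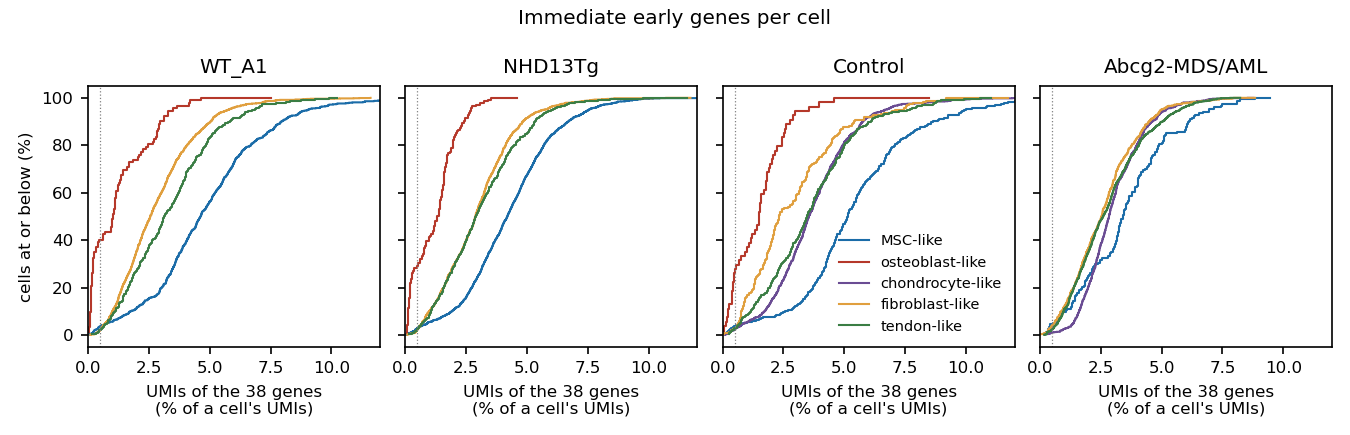
Cumulative share of cells (%) at or below a given share of UMIs in the 38 genes, 1 panel per library and 1 line per stromal type with at least 20 cells; the dotted line marks 0.5% and the horizontal axis stops at 12%. Osteoblast-like lines start steeply, with 39.1%, 28.4% and 24.1% of cells below 0.5%, and MSC-like lines lie farthest to the right over most of their length.

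Lists of related genes outside the 38 were read the same way. The shares over all genes were 26.0% higher and 21.4% lower in MSC-like cells, and 17.5% higher and 20.6% lower in osteoblast-like cells. Of 39 other early response genes tested, 29 were higher and 3 lower in MSC-like cells, and 1 was higher and 29 lower in osteoblast-like cells, with medians of 0.95 and -1.16. In chondrocyte-like cells 11 were higher and 9 lower (20.4% and 15.8% of all genes), with a median of 0.006. Fibroblast-like cells had 10 higher and 7 lower (16.5% and 12.9%), and tendon-like cells 11 and 2 (14.7% and 7.4%). Cxcl1, a neutrophil chemokine, had 1249, 1191, 1975 and 2701 CPM in MSC-like cells and 12.1 to 49.0 CPM in osteoblast-like cells. In fibroblast-like cells it had 1740, 2149, 517 and 708 CPM and was also called higher (2.19, edgeR adjusted p = 0.00122). Nfkbia, the NF-κB inhibitor, was 0.95 higher in MSC-like, 0.77 in tendon-like and 0.53 in fibroblast-like cells. It was lower in osteoblast-like (-1.24) and chondrocyte-like cells (-1.02). Id3, an inhibitor of basic helix-loop-helix factors, was 0.63 higher in MSC-like, 0.48 in tendon-like and 0.41 in osteoblast-like cells. It was lower in chondrocyte-like cells (-1.37). Of 14 ERK feedback inhibitors, 9 were higher and 2 lower in MSC-like cells. In osteoblast-like cells 0 were higher and 3 lower, the latter near the 20.6% of all genes. Spry1, a receptor tyrosine kinase antagonist, had 397, 472, 244 and 146 CPM in MSC-like cells and 2.66 and 1.09 CPM in chondrocyte-like cells (log2 fold change 4.18 in MSC-like cells, SE 0.26, edgeR adjusted p = 1.42e-08). It was also higher in tendon-like cells (1.34). Errfi1, an EGF receptor inhibitor, was 1.76 higher in MSC-like and 1.10 higher in chondrocyte-like cells. Spred1 was called in none of the types (adjusted p of 0.215 to 0.998).

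Of 11 SRF-MRTF and YAP targets tested, 7 were higher and 1 lower in MSC-like cells, and 6 were lower and 1 higher in osteoblast-like cells. Chondrocyte-like cells had 6 higher and 1 lower (20.4% and 15.8% of all genes), with a median of 1.06 against 0.56 in MSC-like cells. Fibroblast-like cells had 2 higher and 5 lower (16.5% and 12.9%), and tendon-like cells 1 higher and 2 lower (14.7% and 7.4%). Ctgf, a matricellular YAP target, was 0.60 higher in MSC-like cells on the log2 scale and fell by 2.62 in osteoblast-like cells. It was also higher in chondrocyte-like (1.685) and tendon-like cells (1.345) and lower in fibroblast-like cells (-1.01). Tpm1, a tropomyosin, was higher in MSC-like and osteoblast-like cells (1.81 and 1.64). Cyr61 did not pass in either (adjusted p = 0.0531 and 0.0549, edgeR), but was higher in chondrocyte-like (1.06) and lower in fibroblast-like cells (-1.735). Of 14 heat shock genes, 6 were higher and 3 lower in MSC-like cells, the latter at the 21.4% of all genes, and 0 were higher and 10 lower in osteoblast-like cells. In chondrocyte-like cells 5 were higher and 1 lower (20.4% and 15.8% of all genes). Hspa5, the chaperone of the endoplasmic reticulum, was 0.88 higher in MSC-like cells, Hspa8 0.63 higher, and Hsp90ab1 had a log2 fold change of -0.28.

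Among 2618 other genes of at least 50 CPM on average, the 8 whose log2 CPM followed the summed members most closely over the 17 sums were Ets1, Nfat5, Mrps6, Ccdc88a, H3f3b, Sertad2, Coq10b and Saraf. Their Spearman correlations were 0.95 (Ets1) to 0.90 (Saraf). The sums share libraries and scaling, so this is a description.

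The other question was whether the members differed between a model and its wild type. With 1 library per group there is no test. A member counts as higher or lower where the 2 libraries differ at least 1.5-fold with an exact 95% interval, for counting error only, that leaves out 1, among members with at least 5 CPM in 1 of them. In the NHD13 pair the summed members hardly moved: log2 ratios of NHD13Tg to WT_A1 were -0.15 in MSC-like, 0.01 in osteoblast-like, 0.10 in fibroblast-like and -0.03 in tendon-like cells. In MSC-like cells 3 of 36 members measured were higher and 3 lower, where 4.68% of all genes were higher and 9.88% lower, and the median was -0.08 against -0.07 over all genes. Osteoblast-like cells had 8 of 35 higher and 0 lower (4.51% and 5.39%; median 0.22 against -0.04), and the 8 became 4 with cells thinned or with cells of several types kept. Haematopoietic markers summed to 907 CPM there in NHD13Tg (9 of 10 detected) and 13.5 CPM in WT_A1 (6 of 10), and without cells carrying such a UMI 10 members were higher. Fibroblast-like cells had 1 of 35 higher and 0 lower (2.3% and 5.29%; 0.15 against -0.07). Tendon-like cells had 2 of 35 higher and 3 lower (3.36% and 7.31%; -0.04 against -0.09). Their haematopoietic markers summed to 19.9 CPM in NHD13Tg (5 of 10 detected) and 651 CPM in WT_A1 (9 of 10), and without cells carrying such a UMI 1 member was lower. In all, 25 of the 38 members were called in none of these types, and the same share over all genes was not counted.

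Rgs2 and Fosl1 were the members that stood furthest apart in MSC-like cells of the NHD13 pair. Rgs2 had 339 CPM in NHD13Tg and 142 CPM in WT_A1, a log2 ratio of 1.25 (1.11 to 1.41), and at nearly equal depth 52.0% of NHD13Tg cells against 29.2% of WT_A1 cells had a UMI of it (35.7% against 16.8% when thinned to 2000 UMIs). The median cell had 4443 UMIs in NHD13Tg and 4374 UMIs in WT_A1. In fibroblast-like cells, where its CPM was low, 10% and 6.79% had a UMI at median depths of 5910 and 6054 UMIs, and the thinned shares were 4.25% and 3.47%. Rgs2 was also higher in osteoblast-like cells at 1.72 (62 against 12 UMIs), and it was lower in tendon-like cells at -0.61, a value that fell under 1.5-fold in 4 of 7 alternatives. Free RNA moved with it, from 33.3 CPM in WT_A1 to 81.6 CPM in NHD13Tg, and the part of free RNA was not tested. Fosl1, an AP-1 factor induced with a delay, had 113 CPM against 50.6 CPM in MSC-like cells (1.16, interval 0.91 to 1.42) and 65.7 against 34.9 CPM in fibroblast-like cells (0.91, or 0.49 with cells of several types kept). In tendon-like cells it had 12.4 against 40.8 CPM (-1.70). In osteoblast-like cells it rested on 18 against 2 UMIs (ratio 2.29, interval 0.51 to 5.72).

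Ier3 was higher in NHD13Tg MSC-like cells (1813 against 1164 CPM, log2 ratio 0.64), and Zfp36 lower (1140 against 1860 CPM, -0.71, interval -0.75 to -0.66). Egr1 (4045 against 6149 CPM, -0.60) and Egr2 (73.6 against 113 CPM, -0.62) were lower too, and both came under 1.5-fold with TMM scaling (-0.49 and -0.51) and with cells of several types kept. The latter setting also took Ier3 to 0.55. Dusp1 was higher in NHD13Tg in 2 types, osteoblast-like (166 against 86.8 CPM, 0.93) and tendon-like cells (818 against 511 CPM, 0.68), and in MSC-like and fibroblast-like cells its ratios were 0.58 and 0.46. Both called values came under 1.5-fold with cells of several types kept and with each cell weighted equally. Haematopoietic markers summed to 2083 CPM in WT_A1 and 848 CPM in NHD13Tg in MSC-like cells, with all 10 markers detected in each, and leaving out cells with any such UMI gave a summed ratio of -0.16.

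In the Abcg2 pair the members were lower in the model library in MSC-like cells. Summed, they had 34675 CPM in Abcg2-MDS/AML and 53158 CPM in Control, a log2 ratio of -0.62 (-0.64 to -0.59), or 1.53-fold. Of 37 members measured 16 were lower and 2 higher, where 13.3% of all genes were lower and 9.57% higher, and the median was -0.57 against -0.05. The match of these cells to MSC markers also differed, as given above, and with marker thresholds multiplied by 2 the summed ratio was -0.43, under the 1.5-fold limit. Haematopoietic markers summed to 953 CPM in Control and 7.37 CPM in Abcg2-MDS/AML, where 8 of 10 were at 0, and without cells carrying such a UMI the ratio was -0.64. Mural markers summed to 183 CPM in Control and 311 CPM in Abcg2-MDS/AML (all 7 and 6 of 7 detected), endothelial markers to 25 and 16.6 CPM (5 and 3 of 8 detected, Cdh5, Kdr and Cldn5 at 0 in both), and their part was not tested.

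The lower members came from several roles. Of the AP-1 group 6 of 9 were lower: Fosb (1577 against 3795 CPM, -1.27), Fosl2 (79.2 against 203 CPM, -1.34), Jund (1271 against 2520 CPM, -0.99), Junb (3224 against 5675 CPM, -0.82), Fos (4940 against 8627 CPM, -0.80) and Fosl1, which rested on 4 against 34 UMIs (-1.34). Klf6, a zinc-finger factor induced by injury, had the widest gap at 372 against 1286 CPM (-1.79, interval -2 to -1.58). It was followed by Nr4a3 (31.3 against 109 CPM, -1.76), Dusp5 (47.9 against 128 CPM, -1.39) and Klf2 (319 against 807 CPM, -1.34). Zfp36 had 925 against 2320 CPM (-1.33), and Myc 330 against 734 CPM (-1.15). Jun (-0.47), Egr1 (-0.57) and 17 other members were not called. With marker thresholds multiplied by 2, Fos, Rhob and Zfp36l1 came to -0.55, -0.36 and -0.28, under 1.5-fold. Btg2 (881 against 1325 CPM) was also lower and came under 1.5-fold in at least 1 alternative. Of the 16 lower calls, 12 stayed at least 1.5-fold under all 7 alternatives. In IER and stress genes 1 of 7 was lower (Ier5, 1047 against 2015 CPM, -0.94).

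The same pair had a smaller summed ratio in the other types. It was -0.30 in chondrocyte-like, -0.08 in fibroblast-like and -0.37 in tendon-like cells. In chondrocyte-like cells 11 of 37 members were lower and 2 higher, where 36.2% of all genes were lower and 7.21% higher, with a median of -0.35 against -0.37, so the members' median lay close to that over all genes. TMM scaling shifted log2 ratios by 0.39 in chondrocyte-like and 0.28 in fibroblast-like cells and turned the summed ratios to 0.09 and 0.21, with 6 members higher and 6 lower in the former and 10 higher and 2 lower in the latter. Fibroblast-like cells had 6 of 35 higher and 6 lower (8.91% and 22.8%; -0.02 against -0.27) before that scaling. Tendon-like cells had 13 of 35 lower and 5 higher (18.9% and 14.9%; -0.33 against -0.04), and TMM moved their summed ratio to -0.29. In tendon-like cells mural markers summed to 57.0 CPM in Abcg2-MDS/AML and 188 CPM in Control (7 of 7 detected in both), and their part was not tested. Haematopoietic markers summed to 12.6 CPM (6 of 10 detected) and 62.2 CPM (7 of 10), and without cells carrying such a UMI 13 members were lower and 4 higher, with a summed ratio of -0.37.

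Klf9 and Klf2 repeated across types of the Abcg2 pair in opposite directions. Klf9 had 947 against 554 CPM in MSC-like (0.77), 892 against 348 CPM in fibroblast-like (1.36) and 1113 against 339 CPM in tendon-like cells (1.72), and 263 against 218 CPM in chondrocyte-like cells (0.27, not called). Klf2, a flow- and quiescence-related factor, was lower in the same 3 types, with 281 against 894 CPM in fibroblast-like (-1.67) and 384 against 1803 CPM in tendon-like cells (-2.23, interval -2.32 to -2.14). In chondrocyte-like cells it had 1271 against 1482 CPM (-0.22). All 6 called values stayed at least 1.5-fold under the 7 alternatives run. Free RNA moved the same way, with Klf9 at 328 against 120 CPM and Klf2 at 734 against 1178 CPM, and its part was not tested. Nr4a3 was lower in MSC-like, chondrocyte-like (-1.58) and tendon-like cells (-2.17), and Nr4a2 in chondrocyte-like (-1.39), fibroblast-like (-0.68) and tendon-like cells (-1.56), the fibroblast-like value falling under 1.5-fold in 3 of 7 alternatives. Zfp36l1, Gadd45a and Gadd45g were higher in fibroblast-like cells (0.90, 1.15 and 1.09) and tendon-like cells (0.83, 1.58 and 0.81). No member was called in the same direction in all 4 types of either pair, and the share of all genes so called was not counted.

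**Figure D5:**
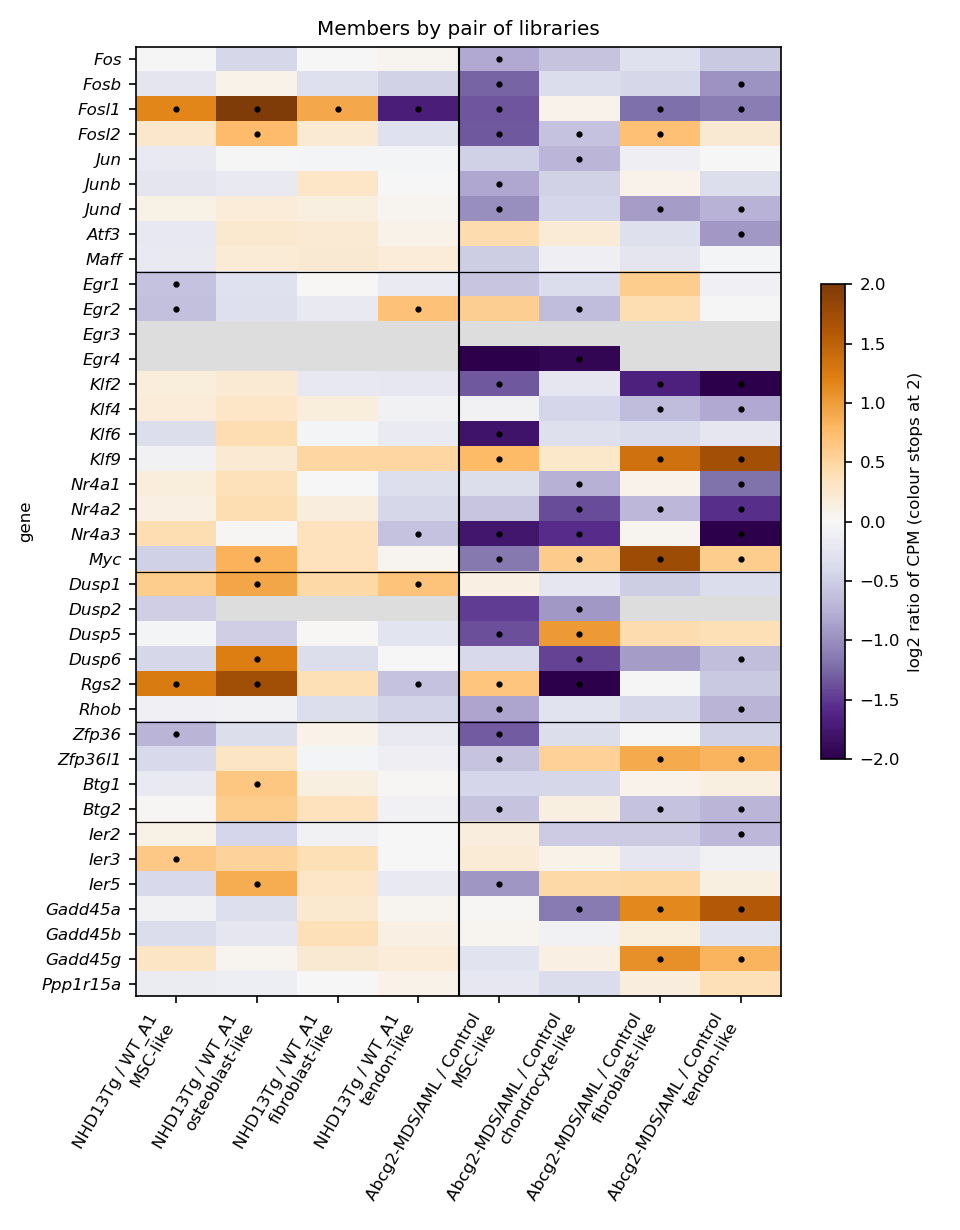
Log2 ratio of CPM, model library over wild-type library, for each member (rows, grouped by role) in each stromal type (columns) of both pairs; dots mark values at least 1.5-fold apart whose counting interval leaves out 1, and grey cells had under 5 CPM in both libraries. The Abcg2 MSC-like column holds 16 dots on the lower side and 2 on the higher, the NHD13 MSC-like column 3 and 3, and colours stop at 2.

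The related lists behaved unevenly in the pairs. In NHD13Tg MSC-like cells 6 of 11 SRF-MRTF and YAP targets were higher and 0 lower, with a median of 0.69 and shares over all genes of 4.68% and 9.88%, among them Cyr61 (1474 against 875 CPM) and Ctgf (1653 against 993 CPM), while 0 of 14 heat shock genes were higher and 3 lower. In osteoblast-like cells of that pair 5 of 9 SRF-MRTF and YAP targets were higher and 1 lower (4.51% and 5.39% of all genes). In the Abcg2 pair 15 of 39 other early response genes were lower and 5 higher in MSC-like cells, and 4 of 13 ERK feedback inhibitors were lower and 1 higher (13.3% and 9.57% of all genes). Spry1 had 146 against 244 CPM there (-0.73), and Tpm1 566 against 1928 CPM (-1.77).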

How the data were processed

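The files are deposited unfiltered matrices of UMI counts per gene and barcode for 4 droplet libraries (10x 3′ v3.1 chemistry, per the labels' protocols), made with Cell Ranger 3.1.0, per the file headers. The submitters' processing notes list Seurat 3.2.3 as well. The genome build is not given in the sources used here. The counts are not normalized. From them, barcodes with at least 2000 UMIs, 500 genes and at most 10% mitochondrial UMIs were kept, cells passing exactly 1 type rule were summed per type and library, and sums of at least 20 cells (17 sums) were used. No doublet caller was run, and cells passing several type rules were left out.

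Types were compared with edgeR 4.0.16 (quasi-likelihood, TMM, filterByExpr, library as block, Benjamini-Hochberg adjustment, threshold 0.05), checked on simulated data. The replicate is the library, and nothing in the labels ties one to a number of animals. Pairs were compared as log2 CPM ratios with 0.5 added to each count and exact 95% binomial intervals, which cover counting error only. Alternatives were DESeq2 1.42.0, RLE factors, no filter, no block, each library left out, a minimum of 1000 UMIs, cells of several types kept, marker thresholds multiplied by 2, and, for pairs, TMM, thinning to 2000 UMIs, equal cell weights and cells free of haematopoietic UMIs. Members given in full were the 12 of highest mean CPM over the 17 sums, up to 6 per direction called in a pair in MSC-like cells, and up to 4 per direction and type by adjusted p, with up to 3 genes of each related list; other members named were chosen after their values were seen. The members and lists were chosen with earlier results of these data known. Cebpd and Cnmd, list genes without a row in the matrices used, were not analysed here.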

Additional observations from a re-analysis of the deposited data

Results flagged for a closer look

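In 8 members the called difference between model and wild type ran one way in some stromal types and the other way in others. The share of all genes called both ways was not counted, so the 8 have no background. By type, 2.3% to 4.68% of all genes were higher and 5.29% to 9.88% lower in the NHD13 pair. In the Abcg2 pair 7.21% to 14.9% were higher and 13.3% to 36.2% lower. These are log2 ratios of 1 library against 1, and the difference between types was not tested.

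In the NHD13 pair, Fosl1 was higher in NHD13Tg in MSC-like (1.16), osteoblast-like (2.29) and fibroblast-like cells (0.911) and lower in tendon-like cells (-1.7). Rgs2 was higher in MSC-like (1.25) and osteoblast-like (1.72) and lower in tendon-like cells (-0.607). Egr2 was higher in tendon-like (0.701) and lower in MSC-like cells (-0.623).

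In the Abcg2 pair, Myc was higher in Abcg2-MDS/AML in chondrocyte-like (0.606), fibroblast-like (1.76) and tendon-like cells (0.586) and lower in MSC-like cells (-1.15). Fosl2 was higher in fibroblast-like (0.705) and lower in MSC-like (-1.34) and chondrocyte-like cells (-0.609). Zfp36l1 was higher in fibroblast-like (0.899) and tendon-like (0.826) and lower in MSC-like cells (-0.593). Gadd45a was higher in fibroblast-like (1.15) and tendon-like (1.58) and lower in chondrocyte-like cells (-1.14). Dusp5 was higher in chondrocyte-like (1.03) and lower in MSC-like cells (-1.39), and Rgs2 was higher in MSC-like (0.665) and lower in chondrocyte-like cells (-2).

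Under the 7 alternatives run for these ratios, Fosl1, Myc, Gadd45a and Dusp5 kept a difference of at least 1.5-fold in both directions. For the others 1 direction was lost under at least 1 alternative: Rgs2 in tendon-like cells of the NHD13 pair and in MSC-like cells of the Abcg2 pair, Fosl2 in fibroblast-like cells, and Zfp36l1 in MSC-like cells. Egr2 lost both. Myc kept its direction in fibroblast-like and MSC-like cells and came under 1.5-fold in chondrocyte-like and tendon-like cells.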

How the results depend on the processing

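Summed log2 ratios of the Abcg2 pair are given for MSC-, chondrocyte-, fibroblast- and tendon-like cells, and of the NHD13 pair for MSC-, osteoblast-, fibroblast- and tendon-like cells, in that order, where they moved by more than the counting interval; the cause was not tested. With TMM they were -0.588, 0.086, 0.207 and -0.295 (Abcg2) and -0.0365, 0.0576, 0.162 and 0.0525 (NHD13). With marker thresholds multiplied by 2 they were -0.433, -0.342 and, in tendon-like cells, -0.425 (Abcg2) and -0.105, 0.0743, 0.0772 and -0.0948 (NHD13). With cells of several types kept, the Abcg2 ratios were -0.693 (MSC), -0.134 (fibroblast) and -0.352 (tendon), and the NHD13 ones -0.0561 (osteoblast), 0.0365 (fibroblast) and -0.0548 (tendon). Thinned cells gave -0.313, -0.165 and -0.383 (Abcg2 chondrocyte, fibroblast, tendon) and -0.199, -0.0714, 0.0525 and -0.0911 (NHD13). Equal weights gave -0.17 (Abcg2 fibroblast) and -0.196, -0.0835, 0.0584 and -0.109 (NHD13). Without cells carrying haematopoietic UMIs the values were -0.331 (Abcg2 chondrocyte), 0.067 (NHD13 fibroblast) and -0.0686 (NHD13 tendon), and with a minimum of 1000 UMIs -0.104 and -0.346 (Abcg2 fibroblast and tendon).

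Counts of members called in a type moved as follows. No replicate block gave 0 higher in fibroblast-like, 3 higher in tendon-like and 1 lower in tendon-like cells; no filter gave 1 lower and thresholds multiplied by 2 gave 0 lower in tendon-like cells. Leaving out each library gave 20 to 27 higher in MSC-like, 25 to 29 lower in osteoblast-like, 0 to 4 lower in chondrocyte-like, 1 to 6 higher and 6 to 10 lower in fibroblast-like, and 4 to 11 higher and 1 to 2 lower in tendon-like cells. Gadd45a in chondrocyte-like cells, not called at -0.08, was -1.13 without Control and 0.69 without Abcg2-MDS/AML, the only reversal among the 185 member values of each setting. No paired analysis was possible because each group is 1 library.

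Counts in pairs moved by over 1.5 times in these cases. With several types kept, NHD13 osteoblast-like higher went from 8 to 4, tendon-like higher from 2 to 0, fibroblast-like higher from 1 to 0, MSC-like lower from 3 to 1, and Abcg2 MSC-like higher from 2 to 1. With TMM, NHD13 MSC-like and tendon-like lower went from 3 to 1, and Abcg2 chondrocyte-like from 2 higher and 11 lower to 6 and 6, and fibroblast-like from 6 and 6 to 10 and 2. Thinning took NHD13 osteoblast-like higher to 4, thresholds multiplied by 2 took NHD13 tendon-like and Abcg2 chondrocyte-like higher to 1, and dropping haematopoietic UMIs took NHD13 tendon-like lower to 1. Depth limits Egr3, Egr4, Dusp2 and Fosl1, which rest on few UMIs in most sums.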
